A study of Drosophila melanogaster with 12 samples.

Results

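A germline knockdown (GKD) of Nup154 was compared with young controls in Drosophila melanogaster ovaries by poly(A) mRNA sequencing. The members were taken by their labels, as the 2 libraries whose genotype label is Nup154 GKD and the 2 libraries labelled as young controls whose titles name NGVP16, out of 12 libraries in the series. The knockdown titles name an RNAi against Nup154, and the series text calls it a developmental control for the germline knockdowns of SETDB1 and wde, which are 2 libraries each. The other 4 libraries are 2 young controls with virgin in their titles and 2 adult controls. The title of the first virgin library also names Dcr, and that of the other does not. All 12 libraries were labelled as ovaries dissected 1 to 3 days after eclosion. The labels do not expand NGVP16, and the driver line, the hairpin, the mating state and the number of females pooled per library were not stated in those labels. Nothing says that the 2 replicates of a group came from separate crosses, so a p-value here reflects the scatter of these libraries alone, and that scatter may be technical.

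Nup154 codes for a scaffold protein of the inner ring of the nuclear pore complex, the channel through which mRNA leaves the nucleus and proteins enter it. The complex is built of an outer ring, an inner ring, membrane anchors and a central channel lined with FG repeat proteins, with filaments on its cytoplasmic face and a basket on its nuclear face. In the fly ovary a germline stem cell divides to give cysts of sister cells joined by ring canals, of which 1 becomes the oocyte while the others become nurse cells that load it with maternal mRNA. Somatic follicle cells surround each cyst, feed it yolk and, at the end, secrete the vitelline membrane and chorion, and a muscle sheath wraps the whole ovariole.

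The libraries held 11508672 and 11813990 counts for Nup154 GKD and 8155977 and 11609262 for the NGVP16 pair. Levels are given below as CPM, the usual count scale relative to library size, here after scaling by the trimmed mean of M values, for replicate 1 and then replicate 2. The Nup154 GKD libraries lay close together, with a median squared difference 5.24 times that of sampling noise over 7713 genes. The NGVP16 libraries lay further apart, at 110.1 times over 6835 genes, and their difference followed exon length (Spearman's rho across 6667 genes = 0.821, against -0.0425 across 7531 genes in Nup154 GKD). Cytoplasmic ribosomal protein genes took 22.8% and 8.97% of the counts in the NGVP16 pair and 10.5% and 10.5% in Nup154 GKD. Counts of genes are therefore also given with single libraries left out, where the lone library of a group is assumed to vary like the other groups. In the adult pair, whose libraries hold the fewest counts of the series (from 471770), the follicle cell markers tj, eya and Fas3 were at 0; without that pair 2104 genes were higher and 1631 lower. Genes were tested with edgeR's quasi-likelihood test on all 12 libraries with 1 mean per group, and a gene is called where its Benjamini-Hochberg adjusted p over 10790 genes was under 0.05. Log2 fold changes are Nup154 GKD over NGVP16, given ± a standard error (SE) derived from the F statistic, with n = 2 libraries per group.

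Oocyte, egg and eggshell transcripts fell in Nup154 GKD, and transcripts of the muscle sheath, of hemocytes, of the germarium niche and of the reproductive tract rose. Part of this was shared by the other germline knockdowns. By edgeR 0 members of the egg activation and niche lists differed from either. Of all genes tested 3.38% were called against SETDB1 GKD and 1.67% against wde GKD, so 0 calls in short lists do not show that levels were alike. DESeq2 called 3 niche genes and 1 egg activation gene lower than in SETDB1 GKD. Niche genes took 0.199% and 0.203% of counts, against 0.312% and 0.422% in SETDB1 GKD and 0.312% and 0.248% in wde GKD. In edgeR's fit 1 muscle sheath gene was lower than in SETDB1 GKD. Muscle sheath genes took 2.64% and 2.58% of counts, against 2.69% and 3.16% in SETDB1 GKD and 2.72% and 2.52% in wde GKD. Higher than in SETDB1 GKD were 2 hemocyte and 3 reproductive tract genes, and 1 hemocyte gene was lower than in wde GKD. In all, 3741 of 10790 genes were called against the NGVP16 pair, 34.7% of those tested. Of these, 1894 (17.6%) were higher and 1847 (17.1%) were lower. The shares of 17.6% higher and 17.1% lower are the background for the count of each list below. Among the higher genes 765 changed at least 8-fold, against 214 of the lower genes. With 1 Nup154 GKD library left in the fit, 1904 genes were called without replicate 1 and 1869 without replicate 2. Without NGVP16 control 1 the count was 3618 and without NGVP16 control 2 it was 4900. Higher genes made up 50.6% of the calls, and 61.6% and 62.6% of them without Nup154 GKD 1 and 2. With the exon length trend of each library removed, 1828 genes were higher and 2966 lower (38.1% of the calls higher), the median of all genes became -0.23, and 3547 of the 3741 calls held with the same direction. When libraries were scaled to their ribosomal protein genes, the median of all genes became 0.29 with 1178 higher and 343 lower genes (77.4% of the calls higher). Under the test against a 2-fold limit 62.0% of the calls were higher, and against the virgin pair 2969 of the 3741 calls were made in the same direction.

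The summed levels of cell type markers differed between the groups. The summed level of 4 germ cell markers (nanos, otu, ovo and zpg) was 295 and 294 CPM in Nup154 GKD against 726 and 1408 in the NGVP16 pair, and that of 3 oocyte markers (osk, grk and bcd) was 234 and 216.8 against 1847 and 2696. Most of the oocyte sum was osk, and grk lay higher in the knockdown. Germ cell markers were thus still detected in the knockdown, at a lower level. The summed level of 3 muscle markers (Mhc, Act57B and Prm) was 10770.1 and 10251 CPM against 1539 and 1629. The 3 follicle cell markers (tj, eya and Fas3) summed to 1278 and 1304 CPM against 373 and 489 (with Fas3 and eya higher but tj lower), and the 3 late follicle markers (Cp36, Cp38 and Vm26Aa) to 136 and 93.8 CPM against 3276 and 1054. For the hemocyte markers Hml, Pxn and NimC1 it was 2868 and 2742 CPM against 29.2 and 65.9, and for 3 testis markers (can, aly and betaTub85D) it was at most 1.07 CPM in any of the 4 libraries. In these whole ovaries, fewer cells of a type and less RNA per cell cannot be told apart, and the part of cell makeup in the changes of single genes was not tested.

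**Figure D1:**
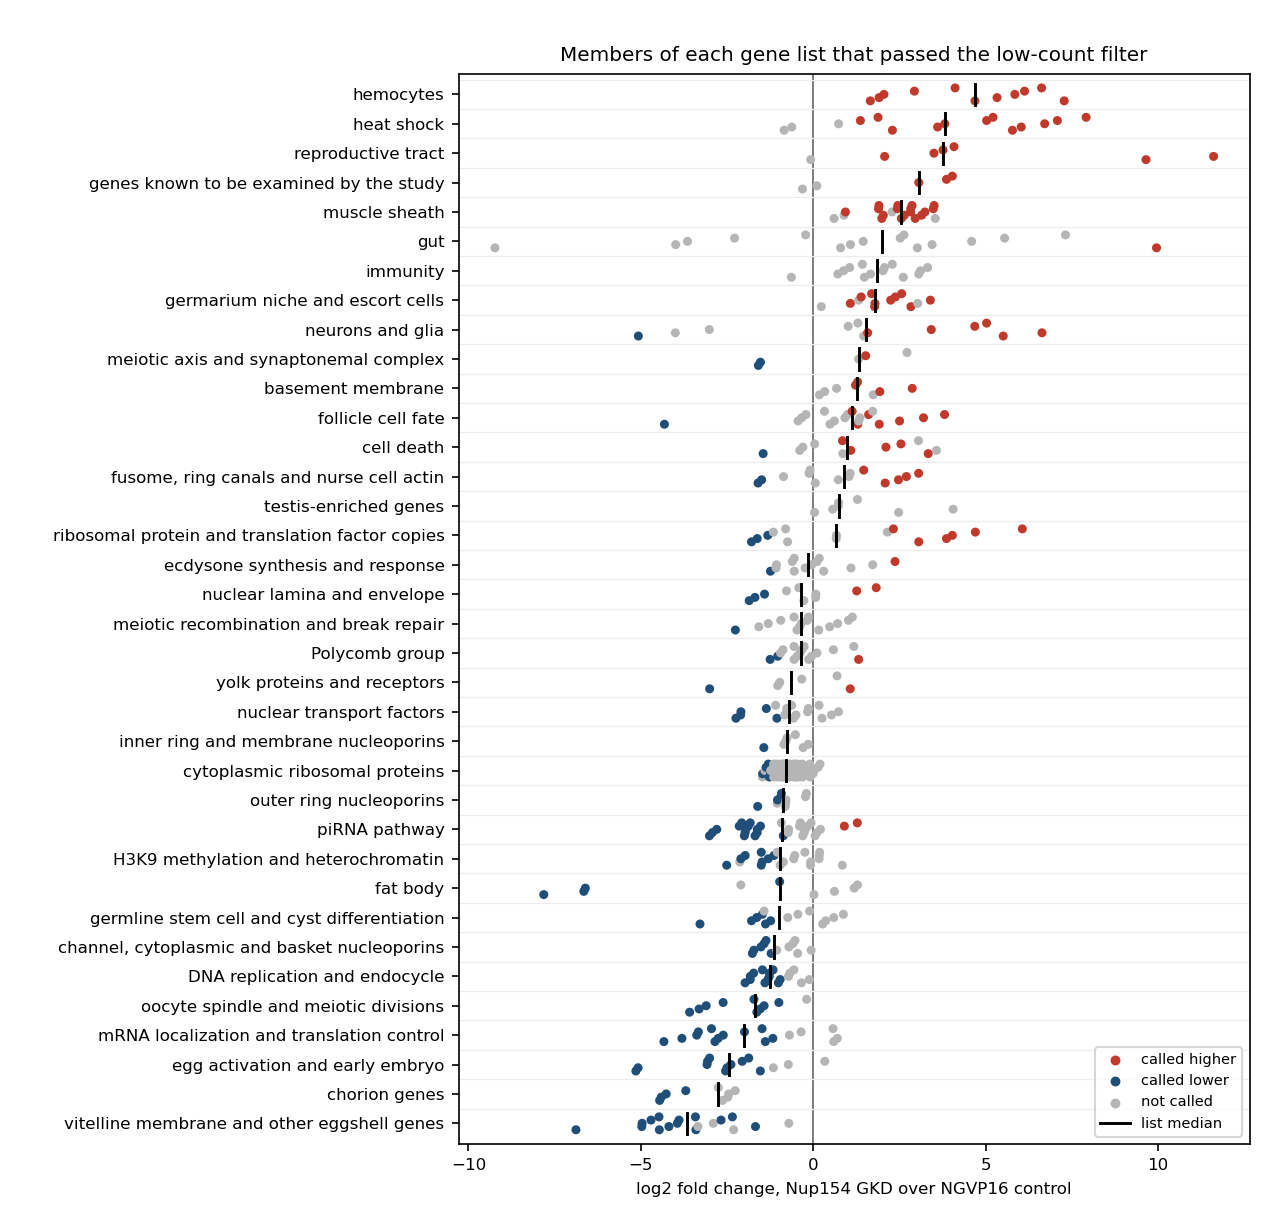
Log2 fold change (Nup154 GKD over NGVP16, x axis) of every member of each gene list that passed the low-count filter, 1 row per list, ordered by the list median (black bar). Red points were called higher, blue points called lower and grey points were not called. Eggshell and egg activation lists lie at the lower end and the hemocyte, heat shock and reproductive tract lists at the upper end.

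The targeted gene was lower but not lost. Nup154 (FBgn0021761, chromosome 2L, 11004820 to 11010921, plus strand) was at 72.2 and 67.7 CPM in Nup154 GKD and at 146 and 232 CPM in the NGVP16 pair. The groups did not overlap, which in the lower direction was so for 31.4% of all genes tested. The replicates of the knockdown lay close together, and the level in the knockdown was lower by 2.7 times in the means. The log2 fold change was -1.43 ± 0.33 (adjusted p = 0.00695). With Nup154 GKD 1 or 2 left out it was no longer called (adjusted p = 0.0594 and 0.0727), as it was not under ribosomal protein scaling (-1.22, adjusted p = 0.206), with the value between -1.72 and -1.05 over the libraries left out. Nup154 overlaps Art8 on the other strand. Its level in the other knockdowns was 94.9 and 98.1 CPM in SETDB1 GKD and 64.1 and 97.9 CPM in wde GKD, and Nup154 GKD was not called different from either (log2 difference -0.46 ± 0.33, adjusted p = 0.45 and -0.21 ± 0.33, adjusted p = 0.789). egg, the gene of the methyltransferase SETDB1, was at -0.08 ± 0.35 and wde, its cofactor, at -0.24 ± 0.44, neither called. The value of wde rested on the control library, at -0.86 without NGVP16 control 1 (adjusted p = 0.0157) and 0.90 without NGVP16 control 2 (adjusted p = 0.0141). It was also called lower, at -0.69 (adjusted p = 0.0461), with the length trend removed.

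All 29 nucleoporin genes had a log2 fold change below 0, and 11 were called lower while 0 were called higher. This compares with 49.8% of all genes tested below 0 and 17.1% called lower. Nucleoporins are known to have been examined by the study, so the list is not independent evidence of a direction. Nup50, a basket protein that takes part in import, was at 66.4 and 74.4 CPM in Nup154 GKD against 259.8 and 219 CPM in the NGVP16 pair. Nup54, an FG protein of the central channel, was at 30.4 and 28.6 against 105 and 89.8 CPM. For both genes the knockdown libraries lay well below both controls. Nup50 changed by -1.77 ± 0.27 (adjusted p = 0.000767) and Nup54 by -1.72 ± 0.27 (adjusted p = 0.00114), and both calls held with any 1 of the 4 libraries left out. The partners of Nup54 in the channel, Nup58 at -1.52 ± 0.32 (adjusted p = 0.00464) and Nup62 at -1.37 ± 0.39 (adjusted p = 0.0183), fell as well, the former not without Nup154 GKD 1 and the latter not with either knockdown library left out.

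In the outer ring, 4 of 10 genes fell, namely Nup43 (-1.61 ± 0.33), Nup107 (-1.04 ± 0.26), Nup133 (-0.94 ± 0.27) and Nup75 (-0.92 ± 0.30), and the list median was -0.87. Among the 7 inner ring and membrane genes Nup154 alone was called, and the median was -0.76. The membrane proteins Gp210 (-0.80 ± 0.41) and Ndc1 (-0.15 ± 0.26) and the inner ring protein Nup205 (-0.29 ± 0.32) were not called. Of the 12 channel, cytoplasmic and basket genes 6 fell, with a median of -1.14. They include the mRNA export factors Rae1 (-1.22 ± 0.30) and Gle1 (-1.43 ± 0.38), which like Nup107, Nup133 and Nup75 lost their calls with either knockdown library left out, while Nup43 lost it without Nup154 GKD 1. Nup214 (-0.06 ± 0.41), Nup153 (-0.45 ± 0.44), Mgtor (-0.53 ± 0.53) and Nup358 (-1.06 ± 0.51) were not called, and the groups of each of these 4 overlapped. Nup358 was at 348 and 1249 CPM in the NGVP16 pair and 402 and 364 CPM in Nup154 GKD. The count of lower nucleoporins was 2 without Nup154 GKD 1, 4 without Nup154 GKD 2, 19 without NGVP16 control 1, 16 without NGVP16 control 2 and 17 against the virgin pair. It was 26 with the length trend removed and 0 under ribosomal protein scaling. By edgeR's test 0 of the 29 differed between Nup154 GKD and SETDB1 GKD and 0 between Nup154 GKD and wde GKD. Of all genes tested 3.38% and 1.67% were called in these comparisons, so 0 calls do not show that the levels were alike. An unadjusted p under 0.05 was reached by 1 and 3 of the 29, and DESeq2 called 1 and 0.

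**Figure D2:**
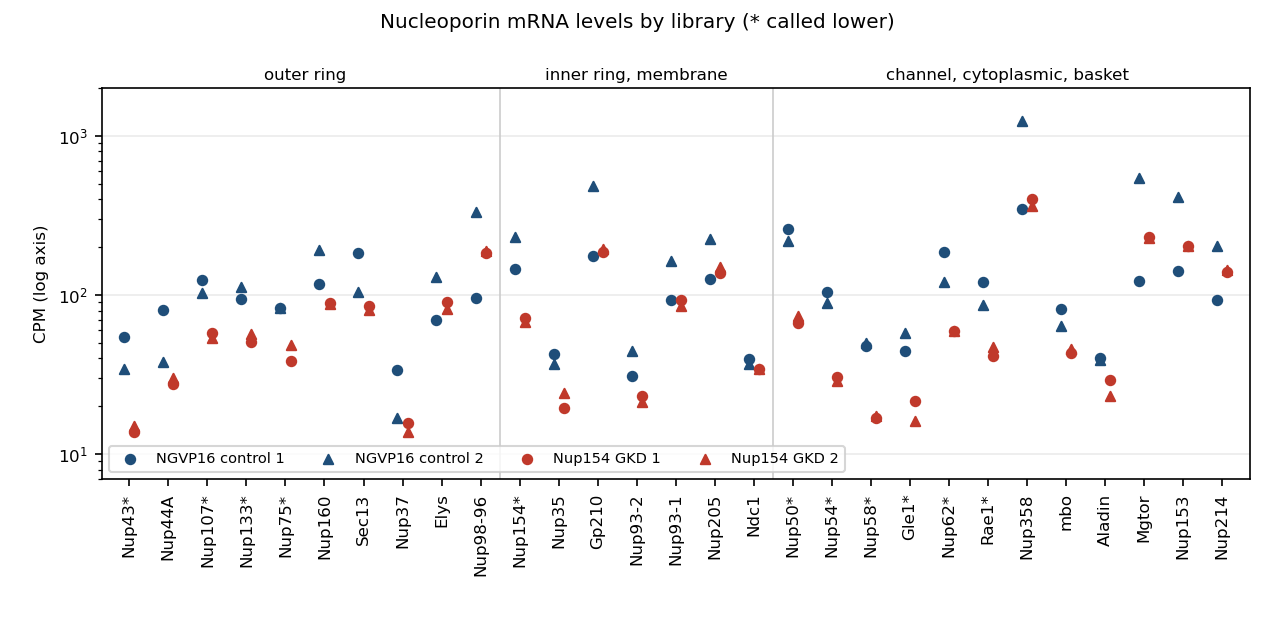
CPM (log axis) of the 29 nucleoporin genes in NGVP16 controls (blue) and Nup154 GKD (red), circles for replicate 1 and triangles for replicate 2, grouped by place in the pore and ordered by log2 fold change. Genes with an asterisk were called lower. The knockdown points lie together, while the control points of long genes such as Nup358 and Mgtor lie far apart.

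Of 18 transport factors that passed the filter 5 fell and 0 rose, with a median of -0.70. The other 13 were not called. Among the 5 were Ran, Rcc1 and RanGAP. Ran, the small GTPase that sets the direction of nuclear transport, was at 458 and 496 CPM in Nup154 GKD and at 2378 and 1708 CPM in the NGVP16 pair (-2.098 ± 0.38, adjusted p = 0.00204). Rcc1, its exchange factor on chromatin, was at 101 and 93.3 against 486 and 432 CPM (-2.24 ± 0.31, adjusted p = 0.000451). RanGAP, which completes the cycle in the cytoplasm, was at 57.0 and 66.3 against 294 and 238 CPM (-2.11 ± 0.36, adjusted p = 0.00148). In these 3 genes the groups did not overlap, which in the lower direction was so for 31.4% of all genes tested, and the calls held with any 1 of the 4 libraries left out. The importin beta gene Fs(2)Ket changed by -1.36 ± 0.42 (adjusted p = 0.0267), a call that ended with either knockdown library left out and moved to -0.69 without NGVP16 control 2. The number of lower transport factors was 3 with either knockdown library left out, 9 without NGVP16 control 1 and 5 without NGVP16 control 2, where 3 rose. The importin Karybeta3 was at 0.25 ± 0.33 and was not called.

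In the nuclear lamina and envelope list 2 of 10 genes rose and 3 fell, beside 17.6% and 17.1% of all genes tested. MAN1, a LEM domain protein of the inner membrane, was at 52.3 and 43.7 against 142 and 168 CPM (-1.69 ± 0.28, adjusted p = 0.00115), and the call held with any 1 of the 4 libraries left out. Ote, another LEM domain protein, was at -1.41 ± 0.32 and baf, which tethers LEM proteins to DNA, at -1.86 ± 0.50. The calls of both ended with either knockdown library left out, as did that of the rise of Msp300 (1.82 ± 0.63), which links nuclei to actin. Without NGVP16 control 1, baf was at -0.86 and Msp300 at 1.16, neither called, and without NGVP16 control 2 Msp300 was at 3.15. LamC, a lamin, rose (1.26 ± 0.27, adjusted p = 0.00519). The numbers that fell were 1, 1, 5 and 3 without Nup154 GKD 1, Nup154 GKD 2, NGVP16 control 1 and NGVP16 control 2, and the list median turned from -0.35 to 0.20 without the last.

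Heterochromatin genes of the H3K9 methylation list included 8 of 21 that fell and 0 that rose (median -0.96). rhi, the HP1 relative that marks germline piRNA source loci, was at 12.3 and 10.7 CPM in Nup154 GKD and 42.7 and 47.7 CPM in the NGVP16 pair (-1.98 ± 0.32, adjusted p = 0.00129). G9a, an H3K9 methyltransferase, was at -2.099 ± 0.46 (adjusted p = 0.00549) and the gene of HP1a at -1.51 ± 0.33 (adjusted p = 0.00494). Without Nup154 GKD 1 the list had 4 lower genes and without Nup154 GKD 2 it had 1, against 12 and 8 without the NGVP16 libraries, and 3 genes rose without NGVP16 control 2. The calls of G9a and the HP1a gene ended without Nup154 GKD 2, and G9a was at -1.16 without NGVP16 control 2.

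Of 14 genes of stem cell and cyst differentiation 6 fell, with a median of -0.99. otu, which is needed for cysts to differentiate, was at 41.02 and 44.2 CPM in Nup154 GKD against 256 and 575 CPM in the NGVP16 pair, and the groups lay well apart (-3.29 ± 0.55, adjusted p = 0.00132). zpg, the germline gap junction protein, was at -1.64 ± 0.40, the translational repressor bru1 at -1.48 ± 0.39, nanos at -1.39 ± 0.39 and the germline transcription factor ovo at -1.236 ± 0.39, each called. With either knockdown library left out these 4 calls ended, as did those of nanos and ovo without NGVP16 control 2 (-0.84 and -0.67). bam, the differentiation switch of the cystoblast, was at 8.61 and 9.39 against 20.7 and 27.7 CPM and was not called (-1.43 ± 0.54, adjusted p = 0.0658). Sxl was at 0.27 ± 0.43, also not called. With either knockdown library left out the count of lower genes was 1. It included neither mei-P26 (-1.79 ± 0.55), which regulates the end of cyst divisions and was at -0.40 without NGVP16 control 2, nor zpg.

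Genes of the meiotic axis and synaptonemal complex moved in both directions, with 1 of 5 higher and 2 lower. Of 15 genes of meiotic recombination and break repair 0 rose, 1 fell and 14 were not called (median -0.35). The synaptonemal complex genes c(3)G, which builds the transverse filament, and c(2)M, of the lateral element, were at -1.53 ± 0.38 and -1.59 ± 0.39, both lower, while cona, of the central element, rose to 27.8 and 35.1 CPM from 12.2 and 9.76 CPM (1.52 ± 0.41, adjusted p = 0.0146). These 3 calls ended with either knockdown library left out. c(3)G was at 189.9 and 272 CPM in SETDB1 GKD, above Nup154 GKD (log2 difference -2.67 ± 0.39, adjusted p = 0.00763), a call lost with either Nup154 GKD library left out.

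The genes of the oocyte spindle and meiotic divisions fell in 9 of 10 cases with 0 higher, with a median of -1.68. mtrm, an inhibitor of Polo kinase in the oocyte, was at 10.4 and 9.07 CPM in Nup154 GKD and 123 and 112 CPM in the NGVP16 pair. alphaTub67C, a maternal alpha tubulin, was at 38.2 and 32.6 against 422 and 282 CPM. Both genes were about alike in the knockdown libraries and far lower than in either control, with changes of -3.59 ± 0.40 (adjusted p = 0.000213) and -3.31 ± 0.46 (adjusted p = 0.000467). cort, an activator of the anaphase-promoting complex in female meiosis, was at -3.11 ± 0.42, the Cdc25 phosphatase twe at -2.61 ± 0.35 and polo at -1.64 ± 0.33, each holding with any 1 of the 4 libraries left out. The count was 6 and 7 without Nup154 GKD 1 and 2.

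Maternal mRNAs whose products are localized or which repress translation fell in 12 of 17 cases, with 0 higher and a median of -1.99. exu, which places bicoid mRNA, was at 22.8 and 19.2 CPM against 527 and 319 CPM (-4.33 ± 0.36, adjusted p = 4.74e-05). osk, the determinant of the germ plasm, was at 162 and 152 against 1778 and 2620.5 CPM (-3.81 ± 0.54, adjusted p = 0.000523). me31B, a helicase of maternal mRNA granules, was at 244 and 242 against 2402 and 2654 CPM (-3.38 ± 0.47, adjusted p = 0.000454). All 3 fell by at least 10.4 times in the means, with the replicates of each group far closer to each other than to the other group. pgc, which silences transcription in pole cells, was at -3.33 ± 0.49 and tral, a partner of me31B, at -2.85 ± 0.41. bcd was at -2.76 ± 0.65 and orb at -1.49 ± 0.50, both called, but bcd not without Nup154 GKD 2. The call of orb ended without Nup154 GKD 1, Nup154 GKD 2 or NGVP16 control 2 (-0.59). grk, which codes for the TGF-alpha signal of the oocyte, was at 65.5 and 61.5 CPM in Nup154 GKD and 41.9 and 36.5 CPM in the NGVP16 pair and was not called (0.70 ± 0.30, adjusted p = 0.0958).

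Genes of egg activation fell in 11 of 14 cases, with 0 higher and a median of -2.44. dhd (FBgn0011761, chromosome X, 5312171 to 5313125), a thioredoxin that acts on sperm chromatin after fertilization, was at 48.7 and 43.0 CPM in Nup154 GKD and 2154 and 1093 CPM in the NGVP16 pair. plu was at 0.738 and 0.955 against 43.0 and 15.2 CPM and gnu at 28.7 and 27.4 against 265 and 204.9 CPM, both subunits of the PNG kinase that restarts translation at egg activation. All 3 were low in both knockdown libraries and high in both controls, with changes of -5.14 ± 0.61 (adjusted p = 0.000212), -5.08 ± 0.59 (adjusted p = 0.00018) and -3.07 ± 0.41 (adjusted p = 0.000501). CycA (-3.08 ± 0.42) and CycB (-3.01 ± 0.41), the mitotic cyclins, fell too, and all 5 calls held with any 1 of the 4 libraries left out. The list had 8 lower genes with either knockdown library left out.

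In the piRNA pathway, which silences transposons in the germline, 15 of 30 genes fell and 2 rose (median -0.90). squ was at 12.8 and 13.5 CPM against 107 and 105 CPM (-3.01 ± 0.27, adjusted p = 7.98e-05). moon and Boot, which act in the transcription and export of piRNA precursors, were at -2.92 ± 0.49 (adjusted p = 0.00124) and -2.80 ± 0.35 (adjusted p = 0.000269). These 3 calls held with any 1 of the 4 libraries left out. The Argonaute gene AGO3, of the cytoplasmic amplification loop, was at -2.07 ± 0.37 and the nuclease gene zuc at -2.15 ± 0.44, the latter not called against the virgin pair. piwi itself (-0.06 ± 0.40) and the helicase gene armi (0.11 ± 0.41) were not called. Without Nup154 GKD 1 the count was 10 lower and without Nup154 GKD 2 it was 12. squ and moon were lower in Nup154 GKD than in SETDB1 GKD (log2 difference -1.86 ± 0.26, adjusted p = 0.00729 and -2.68 ± 0.48, adjusted p = 0.0174), calls that ended with either Nup154 GKD library or SETDB1 GKD 2 left out.

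Replication genes, used by follicle and nurse cells in their endocycles, fell in 12 of 17 cases with 0 higher (median -1.27). CycE was at 28.2 and 28.8 CPM against 84.3 and 140.2 CPM (-1.98 ± 0.37, adjusted p = 0.00223). E2f2, of the E2F transcription factors, was at 26.1 and 32.9 against 128 and 81.7 CPM (-1.83 ± 0.30, adjusted p = 0.00121). The sliding clamp PCNA was at -1.73 ± 0.38 (adjusted p = 0.00528), a call that ended with either knockdown library left out. The count was 5 and 4 without Nup154 GKD 1 and 2.

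Eggshell genes gave the lowest list median. Of 18 vitelline membrane and other eggshell genes 14 fell and 0 rose, with a median of -3.65. Vm26Ac (FBgn0086266, chromosome 2L, 5958005 to 5958631), a vitelline membrane protein, was at 0.41 and 0.159 CPM in Nup154 GKD and 42.3 and 27.5 CPM in the NGVP16 pair (-6.88 ± 0.77, adjusted p = 0.000155). Fcp3C, named as a follicle cell protein, was at 2.46 and 0.796 against 22.999 and 79.0 CPM (-4.96 ± 0.73, adjusted p = 0.000619). dec, whose products join the vitelline membrane and the inner chorion, was at 253 and 233 against 1067 and 2035 CPM (-2.67 ± 0.49, adjusted p = 0.00204). Each of these 3 was lower in both knockdown libraries than in either control, and their calls held with any 1 of the 4 libraries left out. Vm32E (-4.97 ± 1.27) and Vm34Ca (-4.47 ± 1.41) were called as lower but lost their calls without Nup154 GKD 1, Nup154 GKD 2 or NGVP16 control 1, and Vm34Ca also without NGVP16 control 2. The count was 9, 8, 9 and 11 without Nup154 GKD 1, Nup154 GKD 2, NGVP16 control 1 and NGVP16 control 2. The list took 0.0874% and 0.0838% of the counts in Nup154 GKD and 0.795% and 0.789% in the NGVP16 pair.

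Of the 9 chorion genes, 4 fell. Cp7Fc was at 8.12 and 4.61 CPM against 82.6 and 197 CPM (-4.46 ± 0.71, adjusted p = 0.00115), and Cp7Fb at -3.70 ± 0.54 (adjusted p = 0.000606). Cp36 was at 21.7 and 12.5 against 601 and 127 CPM (-4.41 ± 0.74, adjusted p = 0.00145), where NGVP16 control 1 was far above NGVP16 control 2, and Cp38 was at -4.27 ± 0.95. Without NGVP16 control 1 they were at -2.88 and -2.38, and Cp38 was not called without Nup154 GKD 2 (-3.77). The median of the list was -2.76, and -0.32 without NGVP16 control 1. The yolk receptor gene yl, which the oocyte uses to take up yolk, fell from 1329 and 2623 CPM to 249.8 and 243 CPM (-3.005 ± 0.53, adjusted p = 0.00214). The yolk protein gene Yp2 was at -1.03 ± 0.55, not called, and LpR1, a lipophorin receptor, rose (1.07 ± 0.34, adjusted p = 0.0311) but lost its call without Nup154 GKD 1, Nup154 GKD 2 or NGVP16 control 1 and against the virgin pair.

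**Figure D3:**
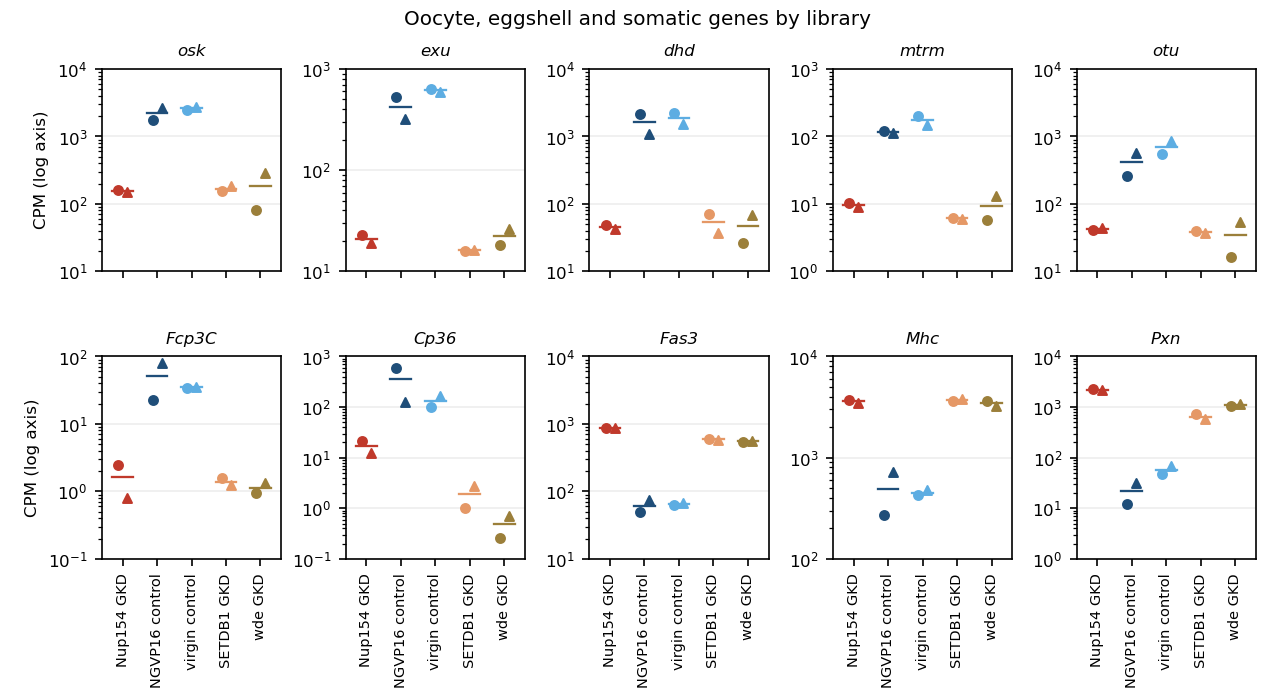
CPM (log axis) of 10 named genes in 5 groups of 2 libraries each, circles for replicate 1, triangles for replicate 2 and lines for the group mean. The oocyte genes osk, exu, dhd and mtrm, the cyst gene otu and the eggshell genes Fcp3C and Cp36 are lower in Nup154 GKD than in both young control pairs, and Fas3, Mhc and Pxn are higher.

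Of 19 genes of follicle cell fate 7 rose and 1 fell (median 1.13). Fas3, an adhesion protein that is high in early follicle cells and polar cells, was at 867 and 857 CPM in Nup154 GKD and 49.1 and 74.1 CPM in the NGVP16 pair (3.81 ± 0.32, adjusted p = 7.64e-05). cas, a zinc finger factor of the early follicle lineage, was at 86.5 and 86.2 against 8.35 and 10.4 CPM (3.20 ± 0.37, adjusted p = 0.000239). kay, the fly Fos, was at 2.50 ± 0.35 (adjusted p = 0.000509) and eya, which marks main body follicle cells, at 1.13 ± 0.29 (adjusted p = 0.0128), the latter not called with either knockdown library left out. tj, which marks the somatic cells of the germarium and follicle, was at 200.2 and 230.4 CPM in the knockdown and 244 and 299.5 CPM in the controls and was not called (-0.34 ± 0.31, adjusted p = 0.428). The T-box gene mid was the member that fell, from 14.4 and 21.4 CPM to 0.656 and 1.11 CPM (-4.32 ± 0.74, adjusted p = 0.00188). Without NGVP16 control 2 the number that rose was 12, and with the length trend removed 8 were higher and 5 lower.

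Niche and escort cell genes of the germarium rose in 10 of 13 cases with 0 lower (median 1.79). hh, the Hedgehog signal of cap cells, was at 8.53 and 6.76 CPM against 0.771 and 0.667 CPM (3.39 ± 0.72, adjusted p = 0.00536). bab2, a factor of cap and terminal filament cells, was at 67.0 and 61.3 against 7.07 and 10.8 CPM (2.83 ± 0.35, adjusted p = 0.000328). The BMP ligand gene gbb was at 2.38 ± 0.31 (adjusted p = 0.00046) and dally, the glypican that shapes BMP signal in the niche, at 1.78 ± 0.38 (adjusted p = 0.00581). All 4 calls held with any 1 of the 4 libraries left out. That of fax (1.39 ± 0.45) ended without Nup154 GKD 1, Nup154 GKD 2 or NGVP16 control 1. Of 8 basement membrane genes 4 rose and 0 fell, among them SPARC (1.93 ± 0.37, adjusted p = 0.0025) and Ppn, the papilin gene (2.87 ± 0.57, adjusted p = 0.00377). The collagen gene Col4a1 was at 0.18 ± 0.45 and was not called. The laminin genes LanB1 (1.29 ± 0.39) and LanB2 (1.22 ± 0.36) lost their calls with either knockdown library left out, leaving 2 of the 4 rises. Without NGVP16 control 2 there were 7, with LanB1 at 2.095.

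Genes of the fusome, ring canals and cortical actin included 5 that rose and 2 that fell out of 14. The filamin gene cher was at 1124 and 1066 CPM against 41.2 and 222 CPM (3.05 ± 0.60, adjusted p = 0.00312), beta-Spec at 2.70 ± 0.59 (adjusted p = 0.00619) and alpha-Spec at 2.47 ± 0.49 (adjusted p = 0.00319). Without NGVP16 control 2, cher was at 4.74, beta-Spec was at 4.201 and 8 genes rose. sn, a fascin of nurse cell actin bundles, fell (-1.60 ± 0.47, adjusted p = 0.0223), but its call ended without Nup154 GKD 1, Nup154 GKD 2 or NGVP16 control 2. The list median was 0.88, and -0.03 with the length trend removed. These are also genes of somatic epithelia and muscle, and the part of the muscle markers in their rise was not tested.

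Muscle sheath genes rose in 17 of 21 cases, 0 fell, and the median was 2.55. Mhc, the muscle myosin heavy chain, was at 3713 and 3484 CPM in Nup154 GKD and 273 and 716 CPM in the NGVP16 pair (2.86 ± 0.47, adjusted p = 0.00118). Mp20, a muscle actin-binding protein, was at 1057 and 1066 against 151 and 74.4 CPM (3.24 ± 0.43, adjusted p = 0.00052). Zasp66, of the Z-disc, was at 780.3 and 829 against 119 and 88.4 CPM (2.96 ± 0.31, adjusted p = 0.000167). In these 3 genes both knockdown libraries lay above both controls. The list took 2.64% and 2.58% of all counts in the knockdown and 0.422% and 0.496% in the controls. bt, the gene of the giant protein projectin, was at 1.90 ± 0.65, but at 1.21 without NGVP16 control 1 and 3.33 without NGVP16 control 2, and its call ended without Nup154 GKD 1, Nup154 GKD 2 or NGVP16 control 1.

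Hemocyte genes rose in all 11 cases that passed the filter, of 13 listed. Pxn, the peroxidasin gene, was at 2250.2 and 2140.4 CPM against 12.2 and 32.2 CPM (6.62 ± 0.52, adjusted p = 4.14e-05). Hml, hemolectin, was at 573 and 552 against 7.2 and 20.5 CPM (5.33 ± 0.64, adjusted p = 0.000313). PPO2, a prophenoloxidase of crystal cells, was at 113 and 106 against 2.83 and 1.08 CPM (5.84 ± 0.62, adjusted p = 0.000167). Each was far above both controls, and the groups of all 11 genes did not overlap, which in the higher direction was so for 34.4% of all genes tested. The median was 4.69, and 3.65 with the 2 genes that had 0 counts in the controls set to their bound. The list took 0.38% and 0.366% of the counts in the knockdown and 0.0139% and 0.0256% in the controls. The count was 9 without each of Nup154 GKD 1, Nup154 GKD 2 and NGVP16 control 1, and 10 without NGVP16 control 2. Pxn and PPO2 were also above SETDB1 GKD (log2 difference 1.76 ± 0.42, adjusted p = 0.0482 and 2.81 ± 0.52, adjusted p = 0.0224), calls that ended with either Nup154 GKD library left out.

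Of 7 genes of the reproductive tract 6 rose, and 6 rose with any 1 of the 4 libraries left out. Send1, a protease of the spermatheca, was at 37.98 and 38.9 CPM in Nup154 GKD with 0 counts in the NGVP16 pair, which makes it at least 253-fold higher against a floor of 3 counts over the group (adjusted p = 0.000974). Oamb and Octbeta2R, octopamine receptors used in ovulation, were at 4.08 ± 0.40 (adjusted p = 0.000107) and 3.76 ± 0.37 (adjusted p = 8.53e-05), and Mmp2, a protease of follicle rupture, at 3.50 ± 0.47 (adjusted p = 0.000396). Neuronal and glial genes had 6 of 12 members higher and 1 lower. Syt4 was at 10.99 and 15.5 CPM against 0.257 and 0.501 CPM (5.03 ± 0.56, adjusted p = 0.000202) and Gs2, a glutamine synthetase, at 3.42 ± 0.36 (adjusted p = 0.000119). elav, the defining neuronal marker, was at 62.9 and 52.7 against 11.9 and 26.6 CPM (1.58 ± 0.35, adjusted p = 0.00559). Among other neuronal markers, nSyb lay higher (8.2 and 7.16 against 0.128 and 0.417 CPM) and Syt1 lower (0 and 0.796 against 2.7 and 3.92 CPM). VGlut, the vesicular glutamate transporter, had 8 counts in the controls and 0 in the knockdown, and its call was lost whichever of the 4 libraries was left out.

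Of 9 fat body genes 4 fell and 0 rose. Against the virgin pair 3 were lower and 2 higher, and the list median turned from -0.97 to 1.36. Fbp1, the fat body receptor for larval serum protein, was at 0.41 and 0.318 CPM against 69.8 and 99.5 CPM (-7.81 ± 0.94, adjusted p = 0.00039). Lsp1gamma, a larval serum protein, was at 0.164 and 0.239 against 15.3 and 27.7 CPM (-6.65 ± 1.15, adjusted p = 0.00194), and Fbp2 at 0.738 and 0 against 32.4 and 41.4 CPM (-6.61 ± 1.17, adjusted p = 0.00336). The virgin pair was low as well, at 2.71 and 4.75 CPM for Fbp1 and 1.25 and 2.45 CPM for Fbp2, and the call of Fbp2 ended against that pair. Without Nup154 GKD 1 no counts of Fbp2 were left in the knockdown. apolpp (1.19 ± 0.61) and Lsp2 (0.61 ± 0.61), which also mark the fat body, were not called. Of 16 gut genes 1 was called, zetaTry, and its call ended whichever of the 4 libraries was left out.

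Heat shock genes rose in 12 of 15 cases with 0 lower (median 3.81, or 3.61 with Hsp70Bbb at its bound). Hsp68 was at 905 and 919.6 CPM in Nup154 GKD and 13.4 and 14.5 CPM in the NGVP16 pair (6.03 ± 0.37, adjusted p = 2.55e-05). Hsp67Bc, a small heat shock protein, was at 112 and 105 against 3.85 and 2.09 CPM (5.21 ± 0.47, adjusted p = 8.53e-05). Hsp23 was at 253 and 269 against 18.9 and 23.9 CPM (3.61 ± 0.52, adjusted p = 0.000565). In each the knockdown lay far above both controls, and these calls held with any 1 of the 4 libraries left out. DnaJ-1, the Hsp40 cochaperone, was at 2.29 ± 0.35 (adjusted p = 0.00107). The constitutive Hsp83 (-0.85 ± 0.39) and Hsc70-3 (-0.63 ± 0.28) were not called. The Hsp70 copies are nearly identical in sequence, so how their reads were assigned among them is uncertain. All 6 copies were called higher, Hsp70Bbb not without Nup154 GKD 2. Hsp70Bb was at 136 and 146 against 0 and 1.001 CPM (7.91 ± 0.85, adjusted p = 0.0002), with all of its control counts in NGVP16 control 2, and Hsp70Ba was at 33.8 and 41.5 against 0.257 and 0.417 CPM (6.71 ± 0.64, adjusted p = 0.000101).

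Some heat shock genes had a higher level in the virgin controls, of the same labelled age, than in the NGVP16 pair. Hsp70Bb was at 83.7 and 157 CPM there, and its call ended against that pair, as did those of Hsp26 (870.2 and 907 CPM in the knockdown, 1256 and 1163 CPM in the virgin pair) and Hsp70Bbb. The call of Hsp26 against the NGVP16 pair (399 and 290.3 CPM, 1.37 ± 0.33, adjusted p = 0.00865) also ended without Nup154 GKD 2. Against the virgin pair 9 of the 15 were higher and 2 lower. Hsp68 was at 56.6 and 35.6 CPM in the virgin pair and Hsp23 at 21.2 and 15.3 CPM, both below Nup154 GKD. Hsp68 was also higher in Nup154 GKD than in SETDB1 GKD and wde GKD (log2 difference 1.62 ± 0.30, adjusted p = 0.0224 and 1.67 ± 0.30, adjusted p = 0.0294), calls that ended whichever library of the pairs compared was left out.

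**Figure D4:**
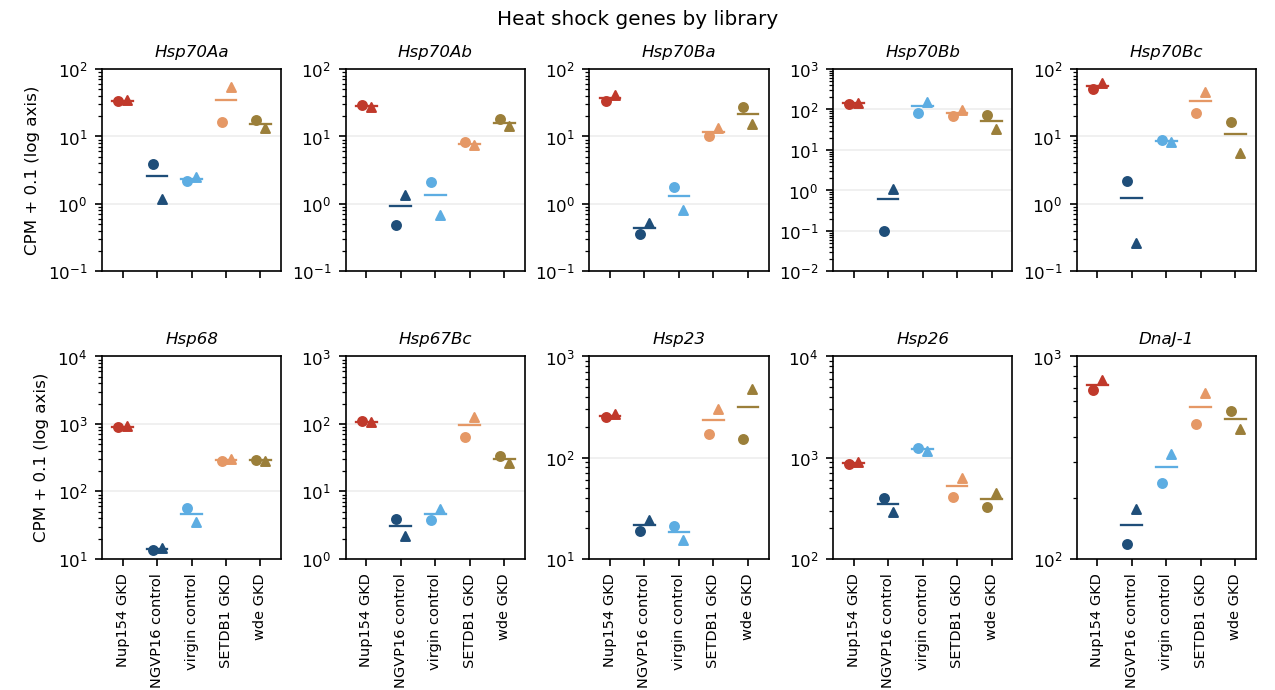
CPM + 0.1 (log axis) of 10 heat shock genes in 5 groups of 2 libraries, circles for replicate 1, triangles for replicate 2 and lines for the group mean. Nup154 GKD lies above the NGVP16 pair in all 10 panels, while the virgin pair lies as high as the knockdown for Hsp70Bb and above it for Hsp26.

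Of 14 immunity genes edgeR called 0, while 5 were higher at an unadjusted p under 0.05 and DESeq2 called 5 higher and 0 lower. AttC, an antibacterial attacin, was at 72.2 and 68.6 CPM against 50.2 and 26.4 CPM. Among cell death genes 5 of 12 rose and 1 fell. hid, which blocks Diap1, rose (2.11 ± 0.39, adjusted p = 0.00235) and Dcp-1, an effector caspase of the germline, fell (-1.45 ± 0.28, adjusted p = 0.00248), and both calls held with any 1 of the 4 libraries left out. The other 4 rises, rpr (3.33 ± 1.17), Diap1 (1.09 ± 0.26), Buffy (2.54 ± 0.67) and Drice (0.85 ± 0.29), ended with either knockdown library left out, and those of rpr and Drice also without NGVP16 control 1. All 10 control counts of rpr lay in NGVP16 control 2. Of 14 genes in the ecdysone list 1 rose, 1 fell and 12 were not called, beside 34.7% called of all genes tested. Eip75B rose (2.37 ± 0.53, adjusted p = 0.00578) and E23 fell (-1.242 ± 0.36, adjusted p = 0.0218). The call of E23 was lost without Nup154 GKD 1, Nup154 GKD 2 or NGVP16 control 2 (-0.63). In the Polycomb group Su(z)2 rose (1.32 ± 0.43) and Pc (-1.25 ± 0.35) and Caf1-55 (-1.03 ± 0.29) fell. These 3 of 16 genes are a smaller share than the 34.7% called of all genes tested. The 3 calls ended with either knockdown library left out. With the length trend removed 0 were higher and 8 lower. Of 22 testis-enriched genes 7 passed the filter and edgeR called 0, while 1 was higher at an unadjusted p under 0.05 and DESeq2 called 1.

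The genes that the study is known to have examined are not independent evidence of a direction. RpS19b, a copy of a ribosomal protein gene used in early germ cells, was at 29.9 and 26.7 CPM in Nup154 GKD and 3.98 and 2.84 CPM in the NGVP16 pair (3.06 ± 0.44, adjusted p = 0.000545). gNacalpha, a germline subunit of the nascent chain complex, was at 14.2 and 21.2 against 2.18 and 0.417 CPM (3.86 ± 0.58, adjusted p = 0.001). RpL22-like was at 2.95 and 5.41 against 0 and 0.417 CPM (4.03 ± 0.71, adjusted p = 0.0021), with all of its control counts in NGVP16 control 2. These 3 rose, and their calls held with any 1 of the 4 libraries left out. Their groups did not overlap, which in the higher direction was so for 34.4% of all genes tested. blanks (4.02 and 4.14 against 6.94 and 0.918 CPM, 0.10 ± 0.83) and Phf7 (24.7 and 31.9 against 35.2 and 35.2 CPM, -0.31 ± 0.33) were not called. In SETDB1 GKD, RpL22-like was at 187 and 124 CPM, gNacalpha at 194 and 185 CPM and blanks at 100.3 and 168 CPM, all called lower in Nup154 GKD (log2 difference -5.21 ± 0.57, adjusted p = 0.00236, -3.42 ± 0.51, adjusted p = 0.0108 and -5.03 ± 0.90, adjusted p = 0.0256). Phf7 was lower too (-1.65 ± 0.34, adjusted p = 0.0292). These 4 calls ended without Nup154 GKD 1, those of gNacalpha, blanks and Phf7 also without Nup154 GKD 2, those of blanks and Phf7 without SETDB1 GKD 2, and that of Phf7 without SETDB1 GKD 1. RpS19b, at 61.8 and 55.2 CPM in SETDB1 GKD, was not called (-1.05 ± 0.39, adjusted p = 0.164).

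Of 15 copies of ribosomal protein and translation factor genes, 6 rose and 3 fell. RpS5b, a copy that the germline uses, fell from 1553 and 639 CPM to 314 and 319 CPM (-1.79 ± 0.47, adjusted p = 0.0146), a call that ended without Nup154 GKD 1, Nup154 GKD 2 or NGVP16 control 1, where it was at -1.002. Of the 70 other cytoplasmic ribosomal protein genes 5 fell and 0 rose, with a median of -0.80. This median depended on the control library used. It was 0.27 with 5 genes higher without NGVP16 control 1, and -1.35 with 60 genes lower without NGVP16 control 2, so no direction is given for these genes.

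Outside the lists, the 12 largest rises with at least 10 CPM in the higher group included genes with 0 counts in both controls. Obp57a (FBgn0043535, chromosome 2R, 20505150 to 20505758), of the odorant-binding protein family, was at 79.7 and 87.0 CPM, at least 549.9-fold higher (adjusted p = 0.00175). SPR (FBgn0029768, chromosome X, 5446656 to 5494012), the sex peptide receptor of the reproductive tract and nervous system, was at 81.9 and 72.2 CPM, at least 507-fold higher (adjusted p = 0.000529). The calls of both held with any 1 of the 4 libraries left out. The glycosyltransferase gene Ugt307A1 was at least 121-fold higher and the cadherin gene CadN2 at least 94.2-fold. stol (FBgn0028863, chromosome 2L, 15644183 to 15718272), a calcium channel subunit, was at 152 and 166 CPM against 0.514 and 0.25 CPM (8.73 ± 0.43, adjusted p = 1.51e-05). ckd was at 123 and 125 against 2.06 and 0.334 CPM (6.80 ± 0.62, adjusted p = 8.53e-05) and NAAT1, an amino acid transporter, at 6.89 ± 1.26. Syn2, a syntrophin gene, was 133.0 times higher by its ratio, with an exact interval of 36.5 to 1102 that covers counting error only. All control counts of NAAT1 and Syn2 lay in NGVP16 control 2. Of the 12 rises, Send1, Hsp70Bb, Hsp70Ba and zetaTry are given above.

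The 12 largest falls included Fbp1, Fbp2, Lsp1gamma, Vm26Ac, Vm32E, Fcp3C, dhd and plu, given above. Mos, a kinase of meiotic maturation, was at 3.61 and 0.557 CPM against 77.2 and 60.8 CPM (-5.05 ± 0.71, adjusted p = 0.000529). Nepl4, a neprilysin-like protein, was at 0.574 and 1.59 against 58.6 and 30.5 CPM (-5.34 ± 0.74, adjusted p = 0.000628). BomS6, an immune-induced short peptide, was at 0.246 and 0.637 against 47.4 and 24.4 CPM (-6.30 ± 1.05, adjusted p = 0.0023). dpr6, an immunoglobulin family protein of neurons, was at 0.246 and 1.19 against 7.07 and 57.5 CPM (-5.46 ± 1.104, adjusted p = 0.00455), and at -3.26 without NGVP16 control 2. These 4 calls held with any 1 of the 4 libraries left out. That their groups did not overlap was a condition of the choice.

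Scaling to the ribosomal protein genes, which raised the median of all genes to 0.29, gave other counts. It left 0 nucleoporins and 0 replication genes lower, 1 gene of the H3K9 list, 1 of the cyst differentiation list, 4 each of the spindle and piRNA lists, 6 of the localization list and 5 of the egg activation list. It left 10 vitelline membrane genes and 4 chorion genes lower, and 14 muscle, 8 hemocyte, 4 niche and 12 heat shock genes higher. Under that scaling the calls of Nup50, Nup54, RanGAP, MAN1, rhi, AGO3, polo, CycE, E2f2, hid, Dcp-1, Eip75B, elav, Ppn, dally, alpha-Spec and beta-Spec ended. With the length trend removed the lower counts were 11 in the transport list, 6 in the lamina list, 15 in the H3K9 list, 5 in the ecdysone list, 4 in the fusome list and 2 each in the heat shock, neuronal and yolk lists. Against the virgin pair 4 yolk genes were lower, and 2 testis-enriched genes were higher. The calls of otu, mtrm, exu, osk, me31B, dhd, squ, Vm26Ac, Fas3, hh, Mhc, Pxn, Send1 and Hsp68 held under that scaling, under removal of the length trend and against the virgin pair.

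Genes on the 2 strands of overlapping loci may share reads, since the kit was directional but the strand setting of the counting is not given in the sources used here. This applies to otu with CG33181, exu with galla-1, cort with cup, SPR with frma, Pxn with CG16986 and Nup50 with coil. osk also overlaps a noncoding RNA on its own strand.

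The Nup154 knockdown was also set against the other germline knockdowns, which share its young control, in tests that compare the knockdown pairs directly. yellow-d, Nox and stol were higher in Nup154 GKD than in both other knockdowns, and Fbp1, Lsp1gamma and BomS6 were lower. Against SETDB1 GKD 365 genes were called (3.38%), 222 higher (2.06%) and 143 lower (1.33%) in Nup154 GKD. Against wde GKD 180 genes were called (1.67%), 72 higher (0.667%) and 108 lower (1.00%). Of these, 89 were called against both, 47 higher than both and 42 lower than both. Both comparisons use the same Nup154 GKD pair, so calls in common and their shared direction are not independent. The counts rested on single libraries. Against SETDB1 GKD they were 13 and 18 without Nup154 GKD 1 and 2, and 145 and 55 without SETDB1 GKD 1 and 2. Against wde GKD they were 2 and 0 without Nup154 GKD 1 and 2, and 19 and 55 without wde GKD 1 and 2. At an unadjusted p under 0.05, 2271 and 1879 genes differed, and DESeq2 called 1261 and 899.

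yellow-d, of the yellow protein family, was at 146 and 162 CPM in Nup154 GKD, 4.65 and 5.99 CPM in SETDB1 GKD and 35.6 and 20.2 CPM in wde GKD, with 2.31 and 4.26 CPM in the NGVP16 pair. Nox, an NADPH oxidase, was at 203 and 185 CPM, 17.2 and 9.61 CPM and 25.6 and 30.0 CPM, with 2.31 and 2.25 CPM in the NGVP16 pair. Lying above SETDB1 GKD was a condition of the choice of both genes. Both were also higher in Nup154 GKD than in either wde GKD library. The adult pair had 91.0 and 195 CPM of yellow-d and 498 and 618 CPM of Nox. The log2 differences from SETDB1 GKD were 4.86 ± 0.52 (adjusted p = 0.00204) and 3.85 ± 0.34 (adjusted p = 0.000407), and these held with any 1 library of the pairs left out. sas, a cell surface protein of epithelia, was at 48.8 and 46.6 CPM in Nup154 GKD, 4.77 and 4.66 CPM in SETDB1 GKD and 6.76 and 4.6 CPM in wde GKD, and stol was at 47.3 and 39.1 CPM in SETDB1 GKD and 19.3 and 16.5 CPM in wde GKD. Their log2 differences from wde GKD were 3.07 ± 0.50 (adjusted p = 0.0219) and 3.15 ± 0.30 (adjusted p = 0.00434). Def, the antimicrobial peptide defensin, was at 59.1 and 64.5 CPM, against 2.23 and 1.33 CPM in SETDB1 GKD and 6.33 and 1.86 CPM in wde GKD (5.09 ± 0.88, adjusted p = 0.0174 and 3.91 ± 0.82, adjusted p = 0.0483). The calls of sas, stol and Def ended with either Nup154 GKD library left out. With either wde GKD library left out, the call of sas against wde GKD ended too, while that of stol held. Those of Def ended whichever library of the pairs compared was left out.

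Fbp1, Fbp2, Lsp1gamma, BomS6 and Drsl5, picked among the largest falls against 1 or both of them, were lower in Nup154 GKD than in both other knockdowns. Fbp1 was at 212 and 68.2 CPM in SETDB1 GKD and 289.9 and 78.2 CPM in wde GKD, against 0.41 and 0.318 CPM (log2 difference -8.54 ± 0.96, adjusted p = 0.00369 and -8.94 ± 0.97, adjusted p = 0.00434). Lsp1gamma was at 52.0 and 27.7 CPM in SETDB1 GKD (-7.54 ± 1.17, adjusted p = 0.0128) and 105 and 21.6 CPM in wde GKD (-8.20 ± 1.19, adjusted p = 0.0149). BomS6 was at 32.6 and 95.4 CPM in SETDB1 GKD (-7.13 ± 1.07, adjusted p = 0.0152) and 88.3 and 35.8 CPM in wde GKD (-7.09 ± 1.07, adjusted p = 0.0222). Drsl5, a drosomycin-like peptide, had 0 counts in Nup154 GKD and 22.4 and 6.1 CPM in wde GKD, at least 119-fold lower in the knockdown of Nup154. Unlike Fbp1, Lsp1gamma and BomS6, it was also near 0 in the controls, at 0 and 0.751 CPM in the NGVP16 pair and 0.0522 and 0 CPM in the virgin pair. Lying below the knockdown compared was a condition of the choice, for Fbp2 and Drsl5 against wde GKD only. Fbp2 and Drsl5 also lay below both SETDB1 GKD libraries. In Fbp1 the replicates of the other knockdowns lay far apart. The fat body markers were Fbp1 itself, Lsp2 and apolpp. They summed to 201 and 191 CPM in Nup154 GKD and 156 and 219 CPM in the NGVP16 pair. Their sum was 1083 and 375 CPM in SETDB1 GKD and 1483 and 1655 CPM in wde GKD, and their part in these differences was not tested. The calls ended with either Nup154 GKD library left out.

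The genes lowest against SETDB1 GKD included some with few counts in Nup154 GKD. TfIIA-S-2, a small subunit of TFIIA, was at 30.7 and 26.3 CPM in SETDB1 GKD and 0 and 0.0796 CPM in Nup154 GKD, a ratio of 718 with an exact 95% interval of 128 to 28386. HP6, a relative of HP1, was at 19.004 and 16.1 CPM in SETDB1 GKD and 0.164 and 0 CPM in Nup154 GKD, a ratio of 221 with an exact 95% interval of 60.9 to 1832. These intervals cover counting error only. In the NGVP16 pair TfIIA-S-2 was at 1.16 and 0.167 CPM and HP6 at 0.771 and 0.0834 CPM. hog was at 11.5 and 14.3 CPM in SETDB1 GKD and had 0 counts in Nup154 GKD, at least 104-fold lower. Its level in the NGVP16 pair was 0.771 and 0.0834 CPM. Among the higher genes against wde GKD were Cp36 (21.7 and 12.5 against 0.257 and 0.707 CPM, 5.12 ± 0.89, adjusted p = 0.0245), pgc (13.8 and 8.12 against 1.8 and 1.238 CPM, 2.84 ± 0.53, adjusted p = 0.0286) and sff (14.5 and 20.7 against 1.8 and 1.238 CPM, 3.53 ± 0.63, adjusted p = 0.0264). Nep1, a neprilysin, was higher than in SETDB1 GKD (36.3 and 39.9 against 3.98 and 1.81 CPM, 3.68 ± 0.51, adjusted p = 0.00613), and Cyp6a8, a cytochrome P450, lower than in wde GKD (0.164 and 1.03 against 62.3 and 105 CPM, -7.09 ± 1.17, adjusted p = 0.0338). These calls ended with either Nup154 GKD library left out.

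**Figure D5:**
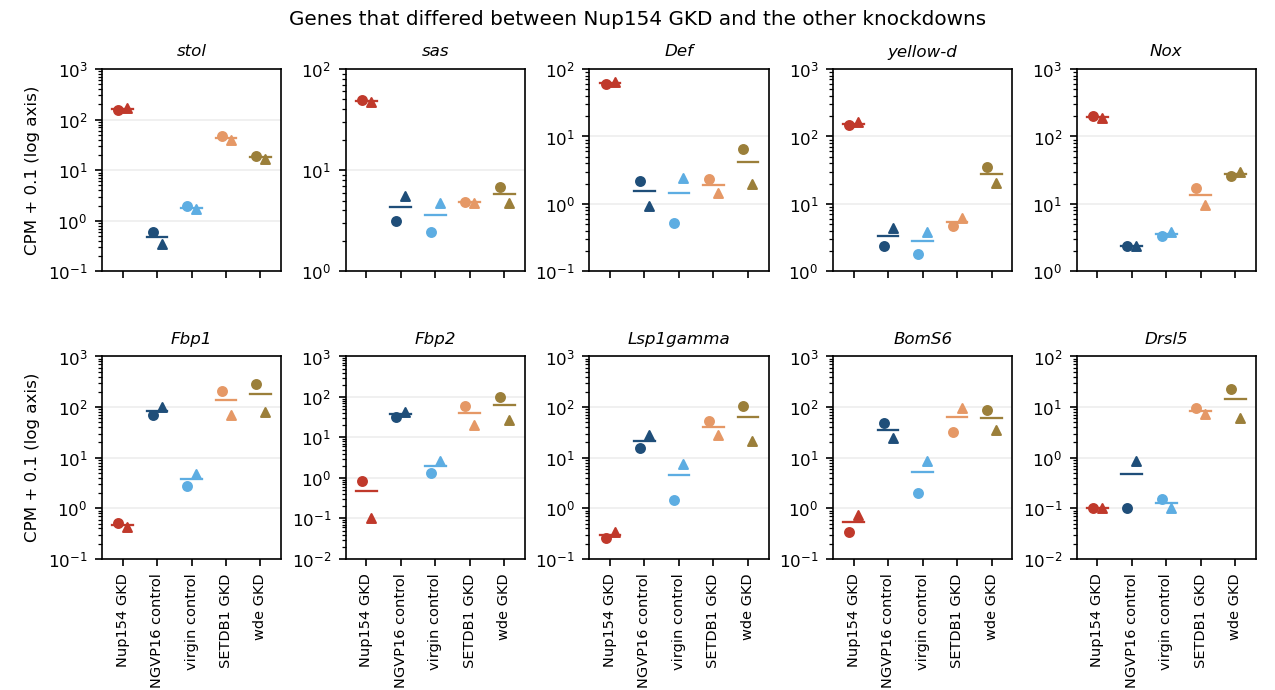
CPM + 0.1 (log axis) of 10 genes named for their difference between Nup154 GKD and the other knockdowns, in 5 groups of 2 libraries, circles for replicate 1, triangles for replicate 2 and lines for the group mean. stol, sas, Def, yellow-d and Nox lie highest in Nup154 GKD among the groups drawn, and Fbp1, Fbp2, Lsp1gamma and BomS6 lie lowest there. The adult pair is not drawn.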

How the data were processed

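Poly(A) RNA of 12 ovary libraries was sequenced, 2 per group. Per the labels' protocols, a DNase step followed extraction (TRIzol or phenol-chloroform), and the library kit was a directional one. The deposited files hold raw counts of reads per FlyBase gene ID for each library, as the authors made them. HISAT2 2.1.0, featureCounts 1.4.6, DESeq2 1.24.0 and the build dm6 are named per the submitters' processing notes, which give no role. Neither the annotation release nor the strand setting is given in the sources used here. Names and dm6 positions were added by ID from an Ensembl annotation, which named 16647 of 17023 IDs.

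Groups came from the genotype labels and titles. Counts were filtered with filterByExpr, scaled by the trimmed mean of M values and tested with edgeR 4.0.16 in R 4.3.3 (robust quasi-likelihood F test, Benjamini-Hochberg adjusted threshold 0.05). All 12 libraries entered the fit with 1 mean per group, 10790 genes and 6 residual degrees of freedom, and the common biological coefficient of variation was 0.38. CPM uses the scaled library sizes. A group at 0 counts was given the floor of 3 counts over the group, and ratios with 1 to 3 counts have exact 95% intervals. Intervals and floors cover counting error only. Alternatives used DESeq2 1.42.0, other scalings, filters and controls, removal of a lowess trend of each library on exon length, a test against a 2-fold limit, a replicate block and single libraries left out. The scripts were tested on simulated data.

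The gene lists and the groups compared were chosen with earlier results of these data known. Genes were named by rule. Nup154, egg, wde and the nucleoporins were always named. To these were added the 12 largest rises and falls past the threshold with at least 10 CPM and no overlap of the groups, up to 6 members per list, and the 6 largest differences in each direction from each other knockdown. Some further list members were named after their values were seen.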

Additional observations from a re-analysis of the deposited data

Results flagged for a closer look

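Direct tests of Nup154 GKD against the other germline knockdowns in edgeR's fit called 365 genes against SETDB1 GKD and 180 against wde GKD. A difference between knockdowns under the shared control is what marks each gene here, and values are log2 differences over SETDB1 GKD and then over wde GKD. yellow-d was at 4.86 and 2.46 and Nox at 3.85 and 2.80, and their calls against SETDB1 GKD held with any 1 library of the pairs left out. Their calls against wde GKD, and the calls of the genes that follow, ended with either Nup154 GKD library left out. Some, such as those of Def, also ended with a library of the other knockdown left out. Def was at 5.09 and 3.91, sas at 3.34 and 3.07, stol at 1.88 and 3.15 and Cp36 at 3.22 and 5.12. Fbp1 was at -8.54 and -8.94, Lsp1gamma at -7.54 and -8.20, BomS6 at -7.13 and -7.09 and Fbp2 at -6.72 and -7.40. Drsl5 had 0 counts in Nup154 GKD, so its fitted values of -9.37 and -10.18 depend on the prior count, and against wde GKD it was at least 119-fold lower. It was also near 0 in the NGVP16 pair, at 0 and 0.751 CPM.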

How the results depend on the processing

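Against the NGVP16 pair, scaling to ribosomal protein genes gave 1521 calls (1178 higher, 343 lower), the fit of only the 2 groups 2244 (948 lower), removal of the length trend 2966 lower, and the 2-fold limit 1818 (1128 higher, 690 lower). With 1 library left out the calls ranged from 1869 to 4900, the higher genes from 1170 to 2579 and the lower from 699 to 2321. Against SETDB1 GKD the count was 32 under ribosomal protein scaling, 1261 by DESeq2, 2268 with only the 2 groups, 100 with the NGVP16 and virgin pairs merged, 909 without the length trend, 69 past the 2-fold limit and 13 to 145 with 1 library left out. Against wde GKD the same settings gave 13, 899, 1979, 9, 463, 39 and 0 to 55, and no low-count filter gave 327. The causes were not tested. The Nup154 level was -1.22 (adjusted p = 0.206) under ribosomal protein scaling, -1.43 (0.134) against the 2-fold limit and -1.72 to -1.05 with 1 library left out, by edgeR. egg changed sign to 0.0364 with DESeq2's size factors, 0.0357 with its test, 0.0643 under ribosomal protein scaling and 0.0802 without the adult pair, and ranged from -0.51 to 0.57 with 1 library left out. wde ranged from -0.86, called lower without NGVP16 control 1 (adjusted p = 0.0157), to 0.90, called higher without NGVP16 control 2 (adjusted p = 0.0141), and was called lower with the length trend removed (-0.69, adjusted p = 0.0461).

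Replicate numbers are shared by the groups. Across 10790 genes the replicate differences of Nup154 GKD correlated at 0.0176 with those of NGVP16, -0.019 with SETDB1 GKD and -0.00155 with wde GKD. Since the Nup154 GKD replicates lay close together, a batch shared with the others could go unseen in these values. Sharing of a batch was not tested. SETDB1 GKD and wde GKD correlated at 0.388, and each of them with NGVP16 at -0.16 and -0.169. With the replicate block 3138 genes were called against NGVP16, 55 against SETDB1 GKD and 9 against wde GKD. The same 8 libraries without the block, a setting chosen after seeing the data, gave 3621, 212 and 93. Among 894 values of single named genes under alternatives, 733 kept their direction and side of the threshold, 153 lost the call, 2 gained it and 6 changed sign. The spread of the NGVP16 libraries, and 2 libraries per group, limit the precision.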
